A study of Rattus norvegicus and synthetic construct with 4 samples.

Results

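The elements described here came from the start sites of genes for protein folding and secretory translocation in the endoplasmic reticulum (ER). They were tested by STARR-seq, a reporter assay in which a cloned sequence is part of the transcript it drives, so that the RNA made from it, set against the plasmid DNA that went in, is its activity. The elements were 198 bp human sequences chosen from islet CAGE data (CAGE maps the 5' ends of transcripts), each marked by random plasmid barcodes of 16 bases. For each of the 3 RNA libraries, 10 ug of the same plasmid library was electroporated into INS1 832/13 cells, a rat insulinoma line used as a beta cell model, and RNA was taken after 24 h. A single library of the input plasmid DNA was the reference, the cells received no further stated treatment, and no agent that stresses the ER is named in the labels. The labels call the RNA replicates biological, and p-values measure only the spread between these electroporations of 1 plasmid library into 1 cell line.

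Members were counted elements whose midpoint lay within 2000 bp of a listed hg19 start position of 34 genes. Of the 3378 elements with counts, 19 met this rule, at 15 genes. Their midpoints lay 28 to 804 bp from the listed positions, which are given in whole kilobases. A further 3 genes (CANX, SEC61G and ATF4) had an element in the barcode pairing table but none in the count table, and 16 genes had no element in either. The latter were SEC61A1, TRAM1, SSR3, SPCS3, HYOU1, DNAJC3, SDF2L1, MANF, CALR, PDIA3, PDIA4, PDIA6, P4HB, KDELR2, HERPUD1 and XBP1, so that none of the 4 disulfide isomerase genes was measured. The gene names are those of the listed positions. No human gene annotation was used here, so exon, intron and strand are not given, and a start site shared with a neighbouring gene was not checked.

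Proteins bound for secretion enter the ER through a common route. The signal recognition particle (SRP9 and SRP14 are subunits) brings the ribosome to the SEC61 channel, the translocon-associated protein complex (SSR1, SSR2, SSR3) assists passage, and the signal peptidase complex (SPCS1, SPCS2, SPCS3) helps remove the signal peptide. Inside the ER, HSPA5 (BiP) and HSP90B1 (GRP94) fold the chain with partners such as DNAJB9, and SEL1L and EDEM2 serve the disposal of misfolded proteins. Beta cells make large amounts of proinsulin and lean heavily on this machinery. When unfolded proteins accumulate, ATF6, XBP1 and ATF4 raise many of these genes, in part through the ER stress response element (ERSE), a composite site near the start of several chaperone genes.

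The tested human sequences are not printed, because the deposited tables give their coordinates only. To show what such promoters look like in the host cell, the 250 bases before the start site of 4 rat genes of the same symbols are given from RefSeq (GRCr8), 3 with an ERSE and 1, Spcs2, without. They are the host cell's own promoters and were not tested. Capitals mark the ERSE on either strand, and in Spcs2 the CCAAT box. The Hspa5 sequence spans chr3:38452766-38453015 on the plus strand, Hsp90b1 chr7:23012294-23012543 on the minus strand, Creld2 chr7:121789134-121789383 on the plus strand and Spcs2 chr1:163595270-163595519 on the minus strand.
rat Hspa5: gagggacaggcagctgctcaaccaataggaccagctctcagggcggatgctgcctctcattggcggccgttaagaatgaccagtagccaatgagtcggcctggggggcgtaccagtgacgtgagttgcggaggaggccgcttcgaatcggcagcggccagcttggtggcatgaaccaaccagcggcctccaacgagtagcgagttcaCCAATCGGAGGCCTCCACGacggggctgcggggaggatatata
rat Hsp90b1: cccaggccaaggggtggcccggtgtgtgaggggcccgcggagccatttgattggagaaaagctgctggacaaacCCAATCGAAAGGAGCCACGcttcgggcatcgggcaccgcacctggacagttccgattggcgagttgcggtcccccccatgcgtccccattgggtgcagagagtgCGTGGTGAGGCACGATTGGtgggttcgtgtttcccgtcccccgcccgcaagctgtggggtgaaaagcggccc
rat Creld2: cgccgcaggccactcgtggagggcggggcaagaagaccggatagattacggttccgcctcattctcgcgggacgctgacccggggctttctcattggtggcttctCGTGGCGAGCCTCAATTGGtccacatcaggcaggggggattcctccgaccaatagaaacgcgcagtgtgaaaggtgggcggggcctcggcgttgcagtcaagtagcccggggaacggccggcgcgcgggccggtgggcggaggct
rat Spcs2: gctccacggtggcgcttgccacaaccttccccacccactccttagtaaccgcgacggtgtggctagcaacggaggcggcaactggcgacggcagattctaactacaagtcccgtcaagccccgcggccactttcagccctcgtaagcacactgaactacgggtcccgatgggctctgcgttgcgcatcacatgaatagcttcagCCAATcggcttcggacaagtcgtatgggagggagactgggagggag

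Of the 34 genes, 28 had a rat promoter in the table, all 15 genes with counted elements among them. SEC61A1, TRAM1, MANF, PDIA3, PDIA6 and KDELR2 had none. The ERSE, searched as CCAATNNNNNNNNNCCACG on both strands over 300 bases (250 before and 50 after the start), was found in 7 of the 28 genes (25.0%) and in 0.0657% of the 33469 rat promoters in the table. The 7 were HSPA5, HSP90B1, DNAJC3, CRELD2, CANX, CALR and XBP1. The variant ERSE-II, searched as ATTGGNCCACG, was found for HYOU1 and HERPUD1 (7.14% against 0.0508% of all promoters), and the UPRE core TGACGTGG for HYOU1 alone (3.57% against 0.595%). These shares describe letters in rat promoters and do not say that a factor binds there. A gene was counted, here and below, if any of its promoters held the letters, while the share over all is of single promoters. The ERSE is named above as a site of several chaperone genes, so its higher share here is no independent result. Among genes with counted human elements, HSPA5, HSP90B1 and CRELD2 had an ERSE in the rat promoter. The ERSE of rat Hspa5 began 43 bases before the start site, those of Hsp90b1 176 and 72 bases before it, and that of Creld2 145 bases before it.

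General promoter letters were also searched on both strands. A CCAAT box, which is part of every ERSE, was found in 71.4% of the 28 genes against 37.5% of all rat promoters, and a GC box (GGGCGG) in 75.0% against 33.1%. The ETS site CCGGAAG was found in 21.4% against 8.75%, and the TATA box TATAAA in 14.3% against 14.2%. The cyclic AMP response element TGACGTCA was found in 0 of the 28 genes, against 1.83% of all promoters. Base composition was not matched.

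RNA output was called above the centre of the library for 3 of the 19 elements, those of SPCS2, SSR2 and EDEM2, and 7 more had fitted values above it that did not pass the test. The centre is set by TMM normalization over all elements, since no control sequence is named, so an activity of 1 is that of a typical islet element. SPCS2, a signal peptidase subunit, was at 7.85 times the centre, SSR2, a subunit of the translocon-associated protein complex, at 2.56 times, and EDEM2, which trims mannose from misfolded glycoproteins, at 2.35 times. The test was edgeR's quasi-likelihood test with Benjamini-Hochberg adjustment over all 3378 elements at 0.05. The same test called 8.88% of all elements above the centre, against 3 of the 19 members (15.8%), and the difference between these shares was not tested. No member and 0 of all elements were called below the centre by edgeR, while at an unadjusted p under 0.05 the numbers below were 0 members and 26 elements. In simulated counts edgeR's test also called 0 of 50 elements set to 0.25 times. The lack of calls below thus does not show that no element was low. DESeq2 called 0 elements below and limma-voom 136, and the other settings called 0 to 50, with 0 members below in each setting run. In DESeq2, however, 1572 elements had no adjusted p, and of the members with a negative log2 ratio DDIT3 alone had one. The settings with at least 5 barcodes and at least 100 DNA counts tested just 9 and 11 members.

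The median log2 RNA/DNA of the 19 elements was 0.10, against -0.03 for all elements, and it ranged from -2.29 for an HSPA5 element to 2.97 for SPCS2. Without RNA replicate 3 the median of the members was -0.76 and without replicate 2 it was -0.36, while that of all elements stayed at -0.04 and -0.05. Activity above the centre in 3 of 3 RNA libraries was found for 5 members (26.3%, against 25.8% of all elements), and activity below it in 3 of 3 for 9 members (47.4%, against 29.4%). No test was made of these shares.

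The members were unevenly covered. They had 2 to 73 barcodes with a median of 4, against a median of 6 over all elements, and 44 to 2117 plasmid DNA counts. EDEM2, SSR2, DDIT3 and the first DNAJB9 element together held 195 of the 259 member barcodes (75.3%). The RNA libraries held 211117, 197554 and 218571 counts in all and the DNA library 1079728. The members took 0.858, 0.783 and 0.758% of the RNA counts and 0.696% of the DNA counts. Of the barcodes paired with the 19 elements, 47.2% were in the count table, against 42.2% over all counted elements. A barcode was listed only with at least 10 DNA counts and an RNA count, so plasmids that gave no RNA were not analysed here.

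Among the translocation genes, 7 of 12 had an element and 2 of the 7 elements were called, against 8.88% of all elements. The difference between these shares was not tested. SPCS2 (chr11:74660236-74660433, as all human coordinates in hg19) gave 140, 120 and 115 RNA counts in RNA replicates 1, 2 and 3 over 137 DNA counts. Its activity was 8.75, 7.85 and 6.99 times the centre, with a mean of 7.86 ± 0.882 (SD over n = 3 RNA libraries, each against the 1 DNA library). All 3 libraries stood far above the centre and close to each other, and the lowest of them was above the highest value of any other member. The log2 ratio was 2.97 ± 0.62 (SE, adjusted p = 0.000191 in edgeR's test), rank 77 of the 3378 elements. Among elements with 5 to 9 barcodes, 7.22% were called.

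SPCS2 rested on 5 plasmids, shown here with their barcodes because so few carry the value.
SPCS2 barcode A: catcctgttagcactt
SPCS2 barcode B: tatatttcctgcttca
SPCS2 barcode C: tcgcaaattcttgtac
SPCS2 barcode D: cggcttgtggattttt
SPCS2 barcode E: aaggtgtacgctcttg
Barcode A had 53 DNA counts and 44, 66 and 44 RNA counts in replicates 1 to 3. Barcode B had 11 DNA counts and 55, 36 and 49 RNA counts. These 2 barcodes were high in every library and held 78.4% of the element's RNA. Barcode C had 25 DNA counts and 23, 4 and 19 RNA counts. Barcode D had 13 DNA counts and 3, 14 and 2 RNA counts, and barcode E had 35 DNA counts and 15, 0 and 1. Each of the last pair was high in a single library. With the barcode of most RNA left out of every element, SPCS2 was at a log2 ratio of 3.31 (adjusted p = 0.00206 in edgeR's test). The SPCS2 barcode left out was A. Barcode B, with the most RNA per DNA count of the 5, stayed in, so this setting does not show SPCS2 without B.

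SSR2 (chr1:155990613-155990810) was carried by 64 barcodes with 1890 DNA counts. Its RNA counts were 677, 455 and 559, or 3.07, 2.16 and 2.46 times the centre, with a mean of 2.56 ± 0.464 (SD, n = 3). Every library lay above the centre, and replicate 1 was the highest. The log2 ratio was 1.36 ± 0.28 (SE, adjusted p = 0.000138 in edgeR's test). With 20 or more barcodes, 22.0% of all elements were called, so a call at this depth is less rare than over the whole library.

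RNA counts per barcode fall into a low range of 1 to 4 and a high range of 5 or more in these libraries. Of the 64 SSR2 barcodes, 39 (60.9%, exact 95% confidence interval 47.9 to 72.9%) reached the high range in at least 1 RNA library, against 45.2% of all barcodes, and 9 did so in all 3. The barcode with the most RNA held 8.57% of the counts, so no single plasmid carried SSR2. Intervals and limits here cover counting error only, since no molecular identifiers are stated. The confidence intervals of barcode shares, for SSR2 and for EDEM2 and DDIT3 below, treat the barcodes of an element as independent. Those barcodes shared the same electroporations, and the spread between electroporations is left out. No difference from the 45.2% was tested. The shares come from the same RNA counts as the log2 ratios, so they are no separate evidence of activity.

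The other 5 translocation elements were not called. SPCS1, a further signal peptidase subunit (chr3:52740177-52740374), had 9 barcodes, 288 DNA counts and 2, 8 and 26 RNA counts, or 0.0595, 0.249 and 0.752 times the centre. All 3 libraries were below the centre but far apart, and the log2 ratio was -1.49 ± 1.45 (SE, adjusted p = 0.839 in edgeR's test). The measured activities of SPCS1 and SPCS2, subunits of the same complex, thus did not overlap. The difference between them was not tested.

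The remaining 4 had 2 to 4 barcodes each. SSR1, another subunit of the complex of SSR2 (chr6:7313300-7313497), had 4, 16 and 40 RNA counts over 114 DNA counts, or 0.301, 1.26 and 2.92 times the centre, on both sides of it. SRP9 (chr1:225965475-225965672) was at 0.789, 0.236 and 0.767 times the centre and SRP14 (chr15:40331245-40331442) at 0, 0.358 and 0.444 times. Both subunits of the signal recognition particle were below the centre in every library, from 76 and 75 DNA counts. The 0 of SRP14 in replicate 1 allows up to 0.343 times the centre (3 counts). SEC61B, the beta subunit of the channel (chr9:101984495-101984692), was at 0.330, 0.689 and 0.641 times from 3 barcodes and 52 DNA counts.

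Among chaperones and their partners, 4 of 10 genes had 8 elements and none was called. With 8.88% of all elements called above the centre, nothing is read from that count. DNAJB9 (ERdj4, a co-chaperone of HSPA5) had the highest mean activities of this group, in both of its elements. The first (chr7:108210005-108210202) had 25 barcodes, 725 DNA counts and 194, 178 and 129 RNA counts. Its activity was 2.29, 2.20 and 1.48 times the centre, 1.99 ± 0.444 (SD, n = 3), with a log2 ratio of 0.99 ± 0.44 (SE, adjusted p = 0.221 in edgeR's test). The second (chr7:108210263-108210460) had 5 barcodes, 100 DNA counts and 68, 27 and 44 RNA counts, or 5.83, 2.42 and 3.66 times the centre, with a log2 ratio of 1.99 ± 1.09 (SE, adjusted p = 0.450 in edgeR's test).

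Both DNAJB9 elements were above the centre in 3 of 3 libraries, and limma-voom called both (adjusted p = 0.00372 and 0.0297). Over all 3378 elements limma-voom called 511 above the centre, against 300 in edgeR. DESeq2 called neither DNAJB9 element (adjusted p = 0.0742 and 0.0789), nor did edgeR in any setting run. With the median over barcodes, limma called the second (adjusted p = 0.00865) and not the first (0.052). The elements do not overlap and lie 60 bp apart. The second was higher than the first in each library, and the ranges of the 3 values did not overlap. The log2 difference was 1.35, 0.15 and 1.31 in the 3 libraries, with a mean of 0.94 ± 0.68 (SD, n = 3), and was small in replicate 2.

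The barcodes of the second DNAJB9 element are shown because the plasmids behind its high value disagree between libraries.
DNAJB9 barcode A: taaattaagtttctta
DNAJB9 barcode B: aaaatttctgctttgc
DNAJB9 barcode C: ggcccgggcgggccgc
DNAJB9 barcode D: gtgatgttctttatta
DNAJB9 barcode E: ataatgtattgtgcac
Barcode A, with 30 DNA counts, gave 20, 13 and 22 RNA counts and was the one plasmid high in every library. Barcode B had 16 DNA counts and 44, 0 and 4 RNA counts, and barcode C had 10 DNA counts and 2, 11 and 3. Barcode D had 26 DNA counts and 1, 0 and 15 RNA counts. Barcode E, with 18 DNA counts, gave 1, 3 and 0 and stayed in the low range. In the first element, 18 of 25 barcodes reached the high range in at least 1 library, 12 of them in a single library. Over all barcodes that reached the high range, 63.1% did so in a single library.

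HSPA5, the central ER chaperone, had 3 elements, which step along the locus by 100 bp. Neighbours share 98 bp, and the first and the third are 2 bp apart. The third (chr9:128003494-128003691) was the best covered, with 11 barcodes and 337 DNA counts, and had 20, 7 and 19 RNA counts. Its activity was 0.508, 0.186 and 0.470 times the centre, 0.388 ± 0.176 (SD, n = 3), below it in every library. The log2 ratio was -1.36 ± 1.28 (SE, adjusted p = 0.831 in edgeR's test).

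The first HSPA5 element (chr9:128003294-128003491) had 2 barcodes, 85 DNA counts and 0, 2 and 4 RNA counts, or 0, 0.211 and 0.392 times the centre. The 0 in replicate 1 allows up to 0.302 times. The second (chr9:128003394-128003591), with 44 DNA counts, had 0, 0 and 18 RNA counts, of which 17 came from a single barcode.
HSPA5 barcode: gttattgatacttcac
That plasmid had 16 DNA counts and 0, 0 and 17 RNA counts, so the 3.41 times the centre of replicate 3 rests on 1 plasmid in 1 library. By counting error alone, the zeros of replicates 1 and 2 allow up to 0.584 and 0.611 times. The 3.41 times of replicate 3 shows that the spread between libraries is wider than these limits. The ranges of the 3 HSPA5 elements overlapped in each of the 3 pairings.

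HSP90B1, the ER member of the HSP90 family, had a pair of elements that share 98 bp. The first (chr12:104324197-104324394), with 2 barcodes and 80 DNA counts, was at 1.29, 0.336 and 1.87 times the centre. The second (chr12:104324297-104324494), with 8 barcodes and 201 DNA counts, had 43, 17 and 31 RNA counts, or 1.83, 0.758 and 1.28 times. Both were above the centre in replicates 1 and 3 and below it in replicate 2, and their ranges overlapped. The second had a log2 ratio of 0.37 ± 1.15 (SE, adjusted p = 0.982 in edgeR's test).

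CRELD2, a secreted ER protein raised by ER stress (chr22:50311930-50312127), had 3 barcodes, 123 DNA counts and 1, 1 and 7 RNA counts. Its activity of 0.0697, 0.0729 and 0.474 times the centre was among the lowest of the members, with a fitted log2 ratio of -2.26. The rat promoters of SPCS2, SSR2 and EDEM2 held no ERSE, ERSE-II or UPRE core letters. Most genes with counted elements lacked them too, since 3 of the 15 had an ERSE and 0 had an ERSE-II or UPRE core. Of the 6 elements of HSPA5, HSP90B1 and CRELD2, whose rat promoters hold an ERSE, 0 were called, and with 8.88% of all elements called and 2 to 11 barcodes on each of the 6, nothing is read from that count. Whether the human elements hold an ERSE was not tested.

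Of the genes for disposal of misfolded proteins, EDEM2 and SEL1L had an element each. EDEM2 (chr20:33735025-33735222) was the best covered member, with 73 barcodes and 2117 DNA counts. Its RNA counts of 583, 611 and 534 were 2.36, 2.59 and 2.10 times the centre, 2.35 ± 0.243 (SD, n = 3). The libraries agreed closely and all were above the centre, and the log2 ratio was 1.23 ± 0.27 (SE, adjusted p = 0.000389 in edgeR's test). Of its barcodes, 49 (67.1%, exact 95% confidence interval 55.1 to 77.7%) reached the high range in at least 1 library, 26 of them in just 1, 16 in 2 and 7 in all 3.

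The EDEM2 barcode with the most RNA shows how far single plasmids depart from the element's mean.
EDEM2 barcode: aactcttttttacaaa
It had 28 DNA counts and 66, 52 and 36 RNA counts, and held 8.91% of the element's RNA. SEL1L, a part of the complex that exports misfolded proteins from the ER (chr14:82000061-82000258), had 2 barcodes, 90 DNA counts and 6, 2 and 0 RNA counts. Its activity was 0.571, 0.199 and 0 times the centre, and the 0 allows up to 0.278 times.

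DDIT3 (CHOP), a transcription factor of the prolonged stress response, was the well covered member without high activity (chr12:57914177-57914374). It had 33 barcodes, 933 DNA counts and 48, 77 and 95 RNA counts, or 0.441, 0.740 and 0.848 times the centre. Every library was below the centre, with a mean of 0.676 ± 0.211 (SD, n = 3) and a log2 ratio of -0.56 ± 0.56 (SE, adjusted p = 0.847 in edgeR's test). Of its 33 barcodes, 8 (24.2%, exact 95% confidence interval 11.1 to 42.3%) reached the high range, each in a single library. Its highest library stood below the lowest library of EDEM2, SSR2 and the first DNAJB9 element, the other members with 20 or more barcodes.

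KDELR1, a receptor that returns escaped chaperones to the ER, was measured by 1 element (chr19:48894706-48894903). It had 2 barcodes, 52 DNA counts and 4, 13 and 2 RNA counts, or 0.659, 2.24 and 0.320 times the centre, with replicate 2 alone above it. The log2 ratio was 0.10 ± 1.85 (SE, adjusted p = 1.00 in edgeR's test).

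Depth set how far each member could be read. The 10 elements with 2 to 4 barcodes had 6 to 60 RNA counts each over the 3 libraries, SEs of 1.58 to 1.91 on the log2 scale and no adjusted p below 0.702 in edgeR's test. None of the 10 was above the centre in 3 of 3 libraries and 6 were below it in 3 of 3, against 18.1 and 30.5% of the 1155 elements with 2 to 4 barcodes. None of the 10 was called, while 3.38% of those 1155 were called above the centre. With SEs this large, even large departures from the centre could be missed. The fitted log2 ratio of -2.29 of the first HSPA5 element had an adjusted p of 0.702 in edgeR's test. These 10 elements are thus not shown to be inactive or typical. Of the 9 members with at least 5 barcodes, 5 were above the centre in every library and 3 below it in every library (55.6 and 33.3%, against 29.8 and 28.8% of all 2223 such elements). Their median log2 ratio was 0.99, against -0.01 over those 2223. No test was made of these shares or medians.

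The calls also depended on where the centre lies and on the low counts. With library totals in place of TMM, SPCS2 was still called (log2 ratio 2.24, adjusted p = 0.0153 in edgeR's test), but SSR2 (0.62, adjusted p = 0.170) and EDEM2 (0.50, adjusted p = 0.286) were not. This setting moved the median of all elements to -0.77. With the low range of barcode counts (1 to 4) set to 0, none of the 3 was called in edgeR's test, with adjusted p of 0.0636 for SPCS2, 0.276 for SSR2 and 0.414 for EDEM2.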

How the data were processed

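The authors deposited raw counts per barcode for 1 plasmid DNA and 3 RNA libraries (whole numbers, not normalized, judged from the values) and a table pairing 86107 barcodes with 4323 elements, which holds no measured values (other than barcode sequences). The sources used here do not give the filter behind the deposited count table, the aligner or any use of molecular identifiers. Element coordinates are hg19, per the submitters' processing notes, and starts are counted from 1.

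Counts were summed per element and tested as RNA against DNA in edgeR 4.0.16 (R 4.3.3) with TMM (factors 1.47 for DNA and 0.876, 0.895 and 0.870 for RNA) and a quasi-likelihood fit over all 3378 elements. SDs leave out the error of the 1 DNA library. The SE is the absolute log2 ratio over the square root of F. Differences within a gene used log2 ratios with a pseudocount of 0.5. The test was checked on simulated counts, with 50 elements at each changed level. Counts were drawn per element and not per barcode, with the fitted spread for RNA and counting error alone for DNA. The shares called may thus not hold for elements with few barcodes. The test called 82% of those set to 8 times, 40% at 4 times, 0% at 2 times and 0% at 0.25 times. Of 3178 unchanged elements it called 0. A member that was not called is thus not shown to lie at the centre.

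The genes, lists and rules were chosen with earlier results of these data known. Full statistics were given for called members, the 6 highest and 6 lowest members with at least 5 barcodes and the best covered of each role. The barcodes printed were chosen after their values were seen. Alternatives changed the test (DESeq2 1.42.0, limma 3.58.1), the normalization, filters, low counts, the weight of barcodes, the distance to the start and each RNA replicate. Python 3.11.15, pandas 2.3.3 and scipy 1.17.1 were used.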

Additional observations from a re-analysis of the deposited data

How the results depend on the processing

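The number of members above the centre was 3 in edgeR and remained the same 3 elements (SPCS2, SSR2 and EDEM2) with DESeq2's size factors, with DESeq2, with at least 5 barcodes, with at least 100 DNA counts, with the top barcode left out and without each RNA replicate. Their adjusted p without a replicate ranged up to 0.0406 in edgeR's test, for EDEM2 without replicate 2. With the top barcode left out of every element, the median of all elements fell to -0.19. The log2 ratios of SPCS2, SSR2 and EDEM2 rose to 3.31, 1.69 and 1.51, and SPCS2 kept its barcode B. The number was 1 with library totals, where SSR2 was at a log2 ratio of 0.62 and EDEM2 at 0.50. It was 0 with RNA counts of 1 to 4 set to 0, where SPCS2 was at 2.50, SSR2 at 0.79 and EDEM2 at 0.65. With the median over barcodes SSR2 (1.07) and EDEM2 (1.11) were not called in limma (adjusted p = 0.106 and 0.0935), while the second DNAJB9 element (2.15, adjusted p = 0.00865) was. limma-voom called 5 members. Over all elements the number above was 300 in edgeR, against 169 with library totals, 312 with DESeq2's size factors, 419 with DESeq2 (1572 elements without an adjusted p), 511 with limma-voom, 470 with the median over barcodes, 115 with low counts at 0, 193 without replicate 2 and 218 without replicate 3. The number below was 0 in edgeR, against 50 with library totals, 136 with limma-voom, 24 with the median over barcodes, 7 with low counts at 0 and 3 without replicate 1.

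The median log2 ratio of the members was 0.10, and became -0.62 with library totals, -0.61 with limma-voom, -0.93 with low counts at 0, -0.35 with the top barcode left out, -0.15 with the median over barcodes, 0.96 over the 9 members with at least 5 barcodes and 0.54 over the 11 with at least 100 DNA counts. Leaving out 1 RNA replicate gave -0.76 to 0.0012. Most members have few barcodes, and the cause of these moves was not tested. With 1000 bp in place of 2000 bp the members were the same 19. The log2 difference of the HSP90B1 pair was 0.31 and became 1.13 with low counts at 0 and -0.44 with the top barcode left out. Without 1 RNA replicate it was -0.04 to 0.74. The differences of the 3 HSPA5 pairs also turned sign in at least 1 setting each, with 0.85 becoming -0.22 without replicate 3, 1.04 becoming -0.13 without replicate 1, and 0.19 becoming -1.40 with low counts at 0. That of the DNAJB9 pair stayed between 0.73 and 1.33. On 1 strand the GC box was found in 53.6% of the 28 genes with a rat promoter, against 21.9% of all rat promoters.

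No paired analysis was possible because RNA is compared with a single DNA library, which has no replicates to pair. Differences between elements were taken within each RNA library.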

Other observations

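ATF4, a transcription factor of the stress response, had an element (chr22:39916499-39916696) paired with 7 barcodes, none of them in the count table. Of the 176 elements paired with 7 barcodes, 149 were counted, and 8.47% of the 945 paired elements that were not counted had 7 or more barcodes. CANX, a lectin chaperone (chr5:179125528-179125725), and SEC61G, the gamma subunit of the channel (chr7:54826789-54826986), were paired with 1 barcode each. The share of paired barcodes that were counted ranged from 15.4% for SEL1L to 83.3% for SPCS2 among the members. The uncounted barcodes have no values in the tables used here, so these shares are not activities.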
